A study of Mus musculus with 31 samples.

Results

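The yolk sac of *Etv2* null embryos was compared with that of wild-type embryos across all genes, with attention to gene classes other than blood and endothelium. The comparison used 11 of the 31 libraries of the study, each library being the yolk sac RNA of 1 sample, chosen by the genotype in its label. The null embryos were *Etv2* Δ/Δ (5 libraries, 3 labelled male and 2 labelled female), in which both copies of *Etv2* lack exons 4 and 5, and the wild-type embryos were *Etv2* +/+ (6 libraries, 1 labelled male and 5 labelled female). All embryos were on a mixed strain background and were collected at embryonic day 8.5, matched by somite stage. The Δ allele had been made by Cre recombination of floxed exons in the female germline with *Mef2c-AHF-Cre*, so every cell of a Δ/Δ embryo carries it, and the tissue layers of the yolk sac were not separated. The other 20 libraries, of 4 further genotypes, entered the estimates of the spread and of terms shared by all genotypes, such as labelled sex.

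Etv2 is an Ets-family transcription factor that is switched on briefly in mesoderm and is needed for endothelial cells and blood to form. At this stage the yolk sac has an outer visceral endoderm, which takes up nutrients and secretes plasma proteins, and an inner extraembryonic mesoderm, in which endothelium and primitive red cells form the blood islands. Endothelium exchanges growth factors and matrix signals with the tissues around it, and primitive red cells divide fast.

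The genotype rests on the deletion between introns 3 and 5, and the primers with which the study followed it are shown because they locate that deletion on the mouse genome (mm9), where *Etv2* lies on the minus strand at chr7:31418635-31421308. They are written 5′ to 3′ as listed by the study.
Etv2-I3F: cacactagagctgagttcagacc
Etv2-I5R: ggaccagggtcttagctgc
Etv2-E4R3: atgtggctctatcagactgcttg
Etv2-I3F matched chr7:31420257-31420279 in intron 3, Etv2-I5R matched chr7:31418879-31418897 in intron 5, and Etv2-E4R3 matched chr7:31419662-31419684 inside exon 4. The intact I3F to I5R product spans 1401 bases of mm9 and contains exon 4 (477 bases) and exon 5 (113 bases), which encode the DNA-binding domain and are absent from the Δ allele.

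*Etv2* itself was read first, as a check of the labels. It had 1.51, 1.14, 0.220, 2.16 and 2.52 CPM in *Etv2* Δ/Δ libraries, where CPM is a gene's read count scaled to the reads assigned to genes in that library, against a lowest value of 0, a median of 0.0903 and a highest of 0.491 CPM in *Etv2* +/+ libraries. These were 84 and 10 reads in all. The groups overlapped in 1 Δ/Δ library, replicate 3. The mean log2(CPM + 1) was 1.03 higher in Δ/Δ (two-sided exact permutation test, p = 0.013; the 462 regroupings allow no p under 0.00433). The counts cover the whole gene, so reads of the remaining exons count as well, and a level of *Etv2* reads shows neither the deletion nor its absence.

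Reads assigned to genes numbered 2671612 to 22396340 in Δ/Δ libraries and 5718619 to 14700743 in +/+ libraries, so that 1 read was worth 0.0440 to 0.378 CPM and 0.0677 to 0.181 CPM. Visceral endoderm markers summed to 37929 to 66071 CPM in Δ/Δ and 39697 to 48920.1 CPM in +/+, and extraembryonic mesoderm markers to 1422 to 2456 and 882 to 1129 CPM, so both layers of the labelled tissue were present in every library. Primitive red cell markers summed to 7.88 to 70.4 CPM in Δ/Δ and 1510.3 to 5571 CPM in +/+, and endothelium markers to 101 to 159 and 312 to 452 CPM. *Xist* stood at 434 and 443 CPM and Y-linked genes at 0 in Δ/Δ replicates 1 and 2, both labelled male, so their reads go against the sex label. *Ftl2-ps*, a pseudogene of ferritin light chain, was at 0.275 CPM or less in every Δ/Δ library and at 0.181 CPM in +/+ replicate 1, but at 36.5 to 45.5 CPM in +/+ replicates 2 to 6. Its state therefore moves with the genotype, and +/+ replicate 1 is the one library of these groups in which the pair can be told apart. The study's model held 2 processing batches that the labels do not give, so batch and genotype cannot be told apart here.

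Of 18477 genes tested, 1420 had a lower level in *Etv2* Δ/Δ yolk sacs (7.69%) and 1035 a higher level (5.60%) at an adjusted p under 0.05, 13.3% in all, and these shares are the background for every gene list below. Among the 10961 genes with a mean log2(CPM + 1) of at least 2 in either group the shares were 11.6% and 8.10%, or 19.7% in all. Outside blood and endothelium, counts of 2 genes or fewer in a list moved by up to 2 genes when single libraries were left out, and such counts say little. All values of one group lay beyond all values of the other for 4.45% of genes that were lower and 2.54% of genes that were higher. When the level of *Ftl2-ps*, on or off, was added to the model (here called the *Ftl2-ps* term), 588 lower genes (3.18%) and 298 higher genes (1.61%) passed, of which 547 and 261 were called without it. With Δ/Δ replicates 1 and 2 left out, 914 and 664 passed. Differences below come from the fit, which holds labelled sex as a term, so they can depart from the difference of the group means. They are on the log2(CPM + 1) scale, Δ/Δ minus +/+, with the standard error (SE) of the fit, and they understate the change of genes with few reads.

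The lists of blood genes held 109 lower and 2 higher of 204 measured genes (6 higher without Δ/Δ replicate 5), and those of endothelium 88 lower and 9 higher of 177. Beyond those lists, 1230 lower and 1024 higher genes remained, of which 380 and 351 differed at least 2-fold. Some of them are expressed in blood or endothelium all the same, since no list is complete. In RNA of a whole tissue, fewer cells of a type and less RNA per cell cannot be told apart. Of the 1194 genes in the 38 lists of other classes, 81 were lower and 168 higher.

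The largest falls outside the lists held genes with near-complete loss. *Hbb-bh0*, a beta-like globin pseudogene of the same cluster as the embryonic globins, had 0, 0.396, 0.331, 0.720 and 0.261 CPM in Δ/Δ, against 60.1, 183 and 264 CPM (lowest, median and highest) in +/+ (log2 difference -6.55, SE 0.83, adjusted p = 6.25e-07). It shares sequence with the other beta globins, so its reads may be theirs in part. *Slc30a10*, which exports manganese from cells, had 0, 0.484, 0, 1.54 and 0 CPM in Δ/Δ, against 13.7, 26.2 and 57.2 CPM in +/+ (log2 difference -4.32, SE 0.40, adjusted p = 1.08e-09). *Klhl4*, which encodes a kelch-repeat protein, stood at 0.378, 0.484, 0.220, 0 and 6.97 CPM in Δ/Δ, against 31.2, 51.6 and 64.3 CPM in +/+ (log2 difference -4.63, SE 0.31, adjusted p = 3.35e-13). The only Δ/Δ library with more than a trace of *Klhl4* was replicate 5, and no Δ/Δ library reached the +/+ range for these 3 genes.

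*Cd109*, a cell surface protein that binds TGF-beta, had 4.53, 0.0880, 1.71, 0.926 and 0.174 CPM in Δ/Δ, against 26.8, 35.7 and 47.2 CPM in +/+ (log2 difference -4.23, SE 0.29, adjusted p = 8.88e-13). *Ell2*, an elongation factor of RNA polymerase II, had 12.8, 11.7, 12.2, 17.4 and 31.8 CPM in Δ/Δ, against 188, 219.5 and 326 CPM in +/+ (log2 difference -3.74, SE 0.26, adjusted p = 1.36e-12). *Prkar2b*, a regulatory subunit of protein kinase A, stood at 9.45, 5.32, 3.42, 12.1 and 5.22 CPM in Δ/Δ and at 84.3, 98.1 and 129.7 CPM in +/+ (log2 difference -3.90, SE 0.22, adjusted p = 4.92e-15). *Ell2* and *Prkar2b* thus kept a measurable level in every Δ/Δ library, under the lowest +/+ library. *Slc38a5*, a glutamine transporter, fell by 3.51 on the log2 scale, and *Gja6*, a connexin, differed by -3.49. *Fgd5*, known from endothelial and blood stem cells, *Tspan32*, a tetraspanin of blood cells, and *Nrros*, known from myeloid cells, had log2 differences of -3.42, -3.41 and -3.39. The remaining members of the 15 were *Pkhd1l1*, *Cpne7* and *9430076G02Rik*, with log2 differences of -4.39, -3.43 and -4.48. All 15 passed also with the *Ftl2-ps* term.

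**Figure D1:**
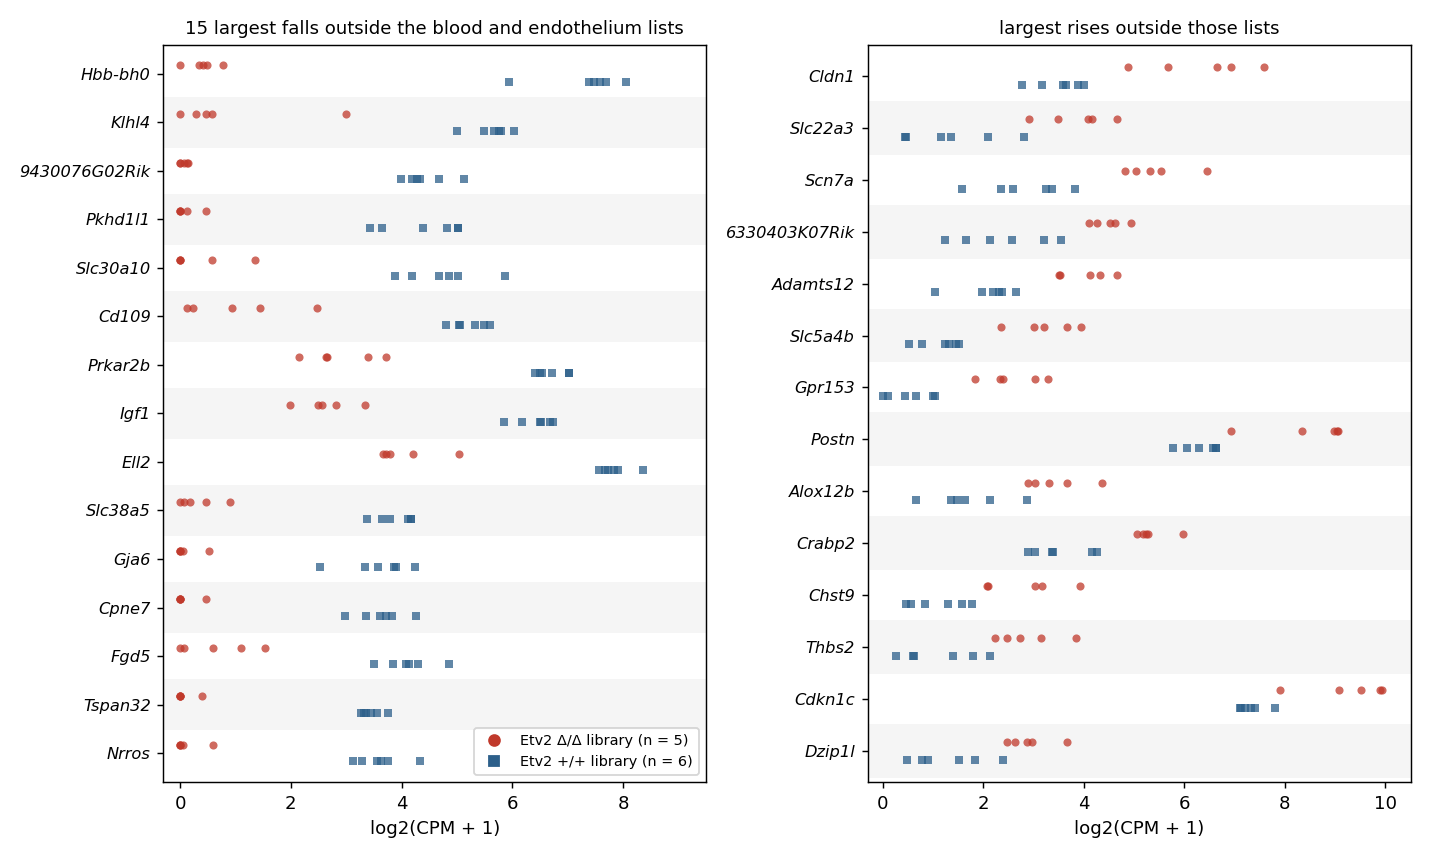
Values of the 15 genes with the largest falls (left) and 14 of the 15 with the largest rises (right) among genes outside the blood and endothelium lists, as log2(CPM + 1) on the horizontal axis. Red circles are the 5 *Etv2* Δ/Δ libraries, placed above the blue squares of the 6 *Etv2* +/+ libraries; no gene overlaps between the groups, as the rule for naming them required, and *Klhl4* has 1 Δ/Δ library apart at 2.99.

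The largest rises were smaller than the largest falls, and several encoded secreted or surface proteins. *Cldn1*, a claudin of tight junctions, had 191, 100.0, 120.5, 49.99 and 28.3 CPM in Δ/Δ, against 5.78, 11.3 and 14.98 CPM in +/+ (log2 difference 2.80, SE 0.41, adjusted p = 8.46e-06). *Slc22a3*, an organic cation transporter, had 10.2, 15.9, 24.2, 6.48 and 16.9 CPM in Δ/Δ, against 0.361, 1.39 and 6.00 CPM in +/+ (log2 difference 2.62, SE 0.47, adjusted p = 0.000188). The sodium channel family gene *Scn7a* stood at 38.9, 27.4, 45.1, 31.9 and 86.5 CPM in Δ/Δ and at 1.96, 6.79 and 13.1 CPM in +/+ (log2 difference 2.57, SE 0.40, adjusted p = 2.42e-05). These 3 transcripts were present at low level in wild-type yolk sac and higher in every Δ/Δ library, although Δ/Δ replicate 5 had the lowest *Cldn1* and the highest *Scn7a* of its group. *Cdkn1c*, an imprinted inhibitor of cyclin-dependent kinases, had 972, 947, 731, 539.9 and 239 CPM in Δ/Δ, against 137, 154 and 222 CPM in +/+ (log2 difference 1.86, SE 0.24, adjusted p = 9.22e-07). *Adamts12*, a matrix metalloprotease, rose by 2.07, and *Thbs2*, a thrombospondin, by 1.90. *Slc5a4b*, *Gpr153*, *6330403K07Rik*, *Alox12b*, *Chst9* and *Dzip1l* were among the 14 rises shown, as were *Postn* and *Crabp2*, which belong to groups described below. With the *Ftl2-ps* term, 5 of these rises lost the call, namely *6330403K07Rik* (adjusted p = 0.14), *Alox12b* (0.252), *Chst9* (0.0867), *Thbs2* (0.0827) and *Dzip1l* (0.0539).

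Growth factor signalling held one of the largest losses. *Igf1*, which encodes insulin-like growth factor 1, a secreted growth and survival factor, had 4.91, 6.07, 9.09, 4.63 and 2.96 CPM in Δ/Δ, against 56.8, 89.7 and 106 CPM in +/+ (log2 difference -3.75, SE 0.20, adjusted p = 1.93e-15). The highest Δ/Δ library was thus far under the lowest +/+ library. The related ligand gene *Igf2*, which is imprinted, went the other way, with 2504, 2856, 3361, 2162 and 1884 CPM in Δ/Δ, against 1530.3, 1594 and 1825 CPM in +/+ (log2 difference 0.62, SE 0.14, adjusted p = 0.00268). *Insr*, the insulin receptor, had 229, 247, 242, 147 and 297 CPM in Δ/Δ and 111, 117 and 153 CPM in +/+ (log2 difference 0.93, SE 0.13, adjusted p = 2.80e-06). The ranges overlapped for *Insr* in 1 Δ/Δ library and for *Igf2* in none. *Igf2r*, which clears IGF2, differed by 0.46, and the mRNA-binding proteins *Igf2bp2* and *Igf2bp3* by -0.38 and 0.34. In all, 2 of the 19 measured genes of this system were lower and 4 higher, with a median difference of 0.13. *Igf1* and *Insr* passed with the *Ftl2-ps* term, whereas *Igf2* (adjusted p = 0.0672), *Igf2r* (0.18), *Igf2bp2* (0.314) and *Igf2bp3* (0.0896) did not.

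The FGF and PDGF list moved in both directions, and its lower members included inhibitors that growth factor receptors induce through the ERK pathway. *Dusp6*, a phosphatase of ERK, had 1.89, 12.5, 1.98, 5.04 and 10.2 CPM in Δ/Δ, against 30.6, 38.3 and 52.8 CPM in +/+ (log2 difference -2.90, SE 0.33, adjusted p = 7.99e-08). *Spry4*, a Sprouty inhibitor of receptor signalling, had 0, 0.836, 1.60, 1.75 and 2.79 CPM in Δ/Δ and 10.1, 14.0 and 17.2 CPM in +/+ (log2 difference -2.71, SE 0.34, adjusted p = 5.90e-07). *Spred1* and *Spry2*, inhibitors of the same pathway, differed by -1.01 and -1.48, with overlapping ranges. Among the 26 measured genes of FGF and PDGF signalling 6 were lower and 4 higher, with a median of 0.07. The higher ones included receptors, namely *Pdgfrb* (log2 difference 0.83), *Fgfr2* (0.81) and *Fgfr3* (0.59), and *Klb*, the co-receptor of endocrine FGFs (0.58). Of these 8 genes *Dusp6*, *Spry4*, *Spred1* and *Klb* passed with the *Ftl2-ps* term. Without Δ/Δ replicate 3 the higher genes were 2.

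*Myc*, a transcription factor of cell growth, had 22.7, 17.2, 21.0, 14.3 and 46.5 CPM in Δ/Δ, against 106, 117 and 132 CPM in +/+ (log2 difference -2.33, SE 0.19, adjusted p = 3.57e-11). *Dusp1*, another early response phosphatase, stood at 6.05, 4.75, 4.24, 4.42 and 0.435 CPM in Δ/Δ and at 14.99, 17.5 and 25.1 CPM in +/+ (log2 difference -2.26, SE 0.38, adjusted p = 8.29e-05). Neither gene overlapped between the groups. *Hsph1*, a heat shock protein, fell by 0.56, and *Klf6*, a growth-responsive zinc finger factor, rose by 0.47. Of the 19 measured immediate early and heat shock genes these 3 were lower and 1 higher, with a median of -0.50. *Hsph1* lost its call with the *Ftl2-ps* term (adjusted p = 0.466).

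**Figure D2:**
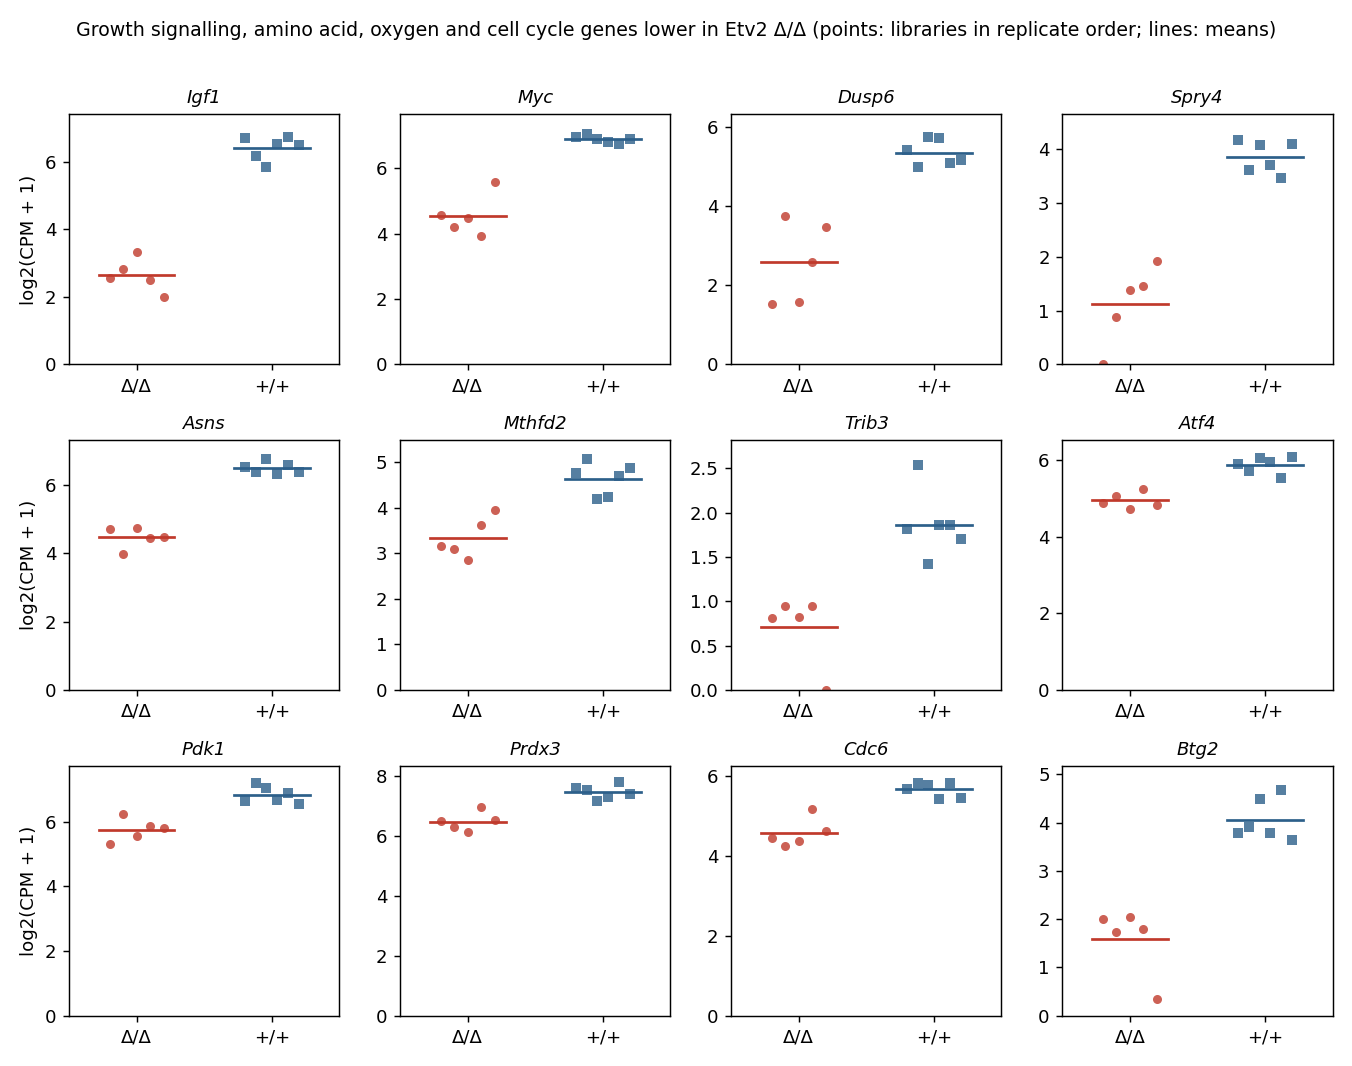
log2(CPM + 1) of 12 genes that were lower in *Etv2* Δ/Δ, with Δ/Δ libraries as red circles on the left and +/+ libraries as blue squares on the right of each panel, and lines at the group means. The groups do not overlap in any of the 12 panels, and the means of *Igf1* differ by more than those of any other gene shown.

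The amino acid response, in which the factor Atf4 induces enzymes and transporters when amino acids are short or the endoplasmic reticulum is stressed, split into losses and gains. *Asns*, asparagine synthetase, had 24.9, 14.7, 25.8, 20.8 and 21.1 CPM in Δ/Δ, against 78.3, 87.0 and 107 CPM in +/+ (log2 difference -1.98, SE 0.16, adjusted p = 5.15e-11). *Mthfd2*, an enzyme of mitochondrial one-carbon metabolism, had 7.94, 7.52, 6.17, 11.3 and 14.4 CPM in Δ/Δ and 17.4, 25.6 and 32.5 CPM in +/+ (log2 difference -1.28, SE 0.22, adjusted p = 0.000102). *Atf4* itself stood at 28.3, 32.6, 25.3, 37.1 and 27.6 CPM in Δ/Δ, against 45.3, 59.8 and 67.0 CPM in +/+ (log2 difference -0.94, SE 0.20, adjusted p = 0.00145). These 3 genes and *Trib3*, a pseudokinase induced by Atf4 (log2 difference -1.31), were lower in every Δ/Δ library than in any +/+ library. Of the 36 measured genes of the unfolded protein and amino acid response 6 were lower and 3 higher, with a median of -0.11. The higher ones were *Aldh18a1*, of proline synthesis (0.65), *Phgdh*, the first enzyme of serine synthesis (0.69), and *Vldlr*, a lipoprotein receptor (1.49). With the *Ftl2-ps* term *Asns*, *Mthfd2* and *Atf4* passed, and *Trib3* (adjusted p = 0.0749), *Aldh18a1* (0.127), *Vldlr* (0.385) and *Phgdh* (0.289) did not. Leaving out +/+ replicate 2 left 1 higher gene.

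Promoter stretches are shown for *Asns*, *Trib3* and *Vldlr*, called members of this list whose promoters hold the letters TGATGNAA, the C/EBP-ATF response element by which Atf4 and its partners are known to act. The windows run from 250 bases before to 50 after the transcript start (RefSeq, GRCm38.p6, not the build of the expression table), in the direction of the gene, with the motif in capitals on either strand.
Asns: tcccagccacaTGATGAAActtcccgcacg
Trib3: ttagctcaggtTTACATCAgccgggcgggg
Vldlr: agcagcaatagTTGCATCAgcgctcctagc
They lie at chr6:7693214-7693243 (minus strand), chr2:152344028-152344057 (minus strand) and chr19:27216809-27216838 (plus strand). The motif begins 23 bases before the start of *Asns*, 14 bases after that of *Trib3* and 200 bases before that of *Vldlr*. It was present in 9 of the 32 list members with a window (28.1%) and in 1304 of all 32851 windows (3.97%), both strands counted. The first share counts genes and the second counts windows. The list was also chosen for a response in which Atf4 acts, so these shares are no test of the motif. The genes that carry it did not move as one group, since *Asns* and *Trib3* were lower, *Vldlr* was higher, and *Atf3*, *Chac1*, *Herpud1*, *Nupr1*, *Pycr1* and *Slc7a11* did not pass the test (log2 differences -0.51 to -0.03).

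Genes of the hypoxia response and of glycolysis were more often lower than higher, 9 against 1 of 39, with a median of -0.15. *Pdk1*, a kinase that limits the oxidation of pyruvate in mitochondria, had 38.5, 74.3, 46.6, 57.4 and 54.8 CPM in Δ/Δ, against 92.1, 109.7 and 147 CPM in +/+ (log2 difference -1.21, SE 0.15, adjusted p = 6.42e-07). *Pfkfb3* and *Pfkfb4*, which set the level of the main activator of glycolysis, stood at 6.34 to 13.6 CPM and 0.609 to 4.18 CPM in Δ/Δ, against 15.4 to 32.7 CPM and 6.14 to 23.3 CPM in +/+ (log2 differences -1.14 and -2.09). Neither overlapped between the groups. The gene that rose was *Slc2a1*, the main glucose transporter, with 3892, 3664, 4762, 3321 and 4649 CPM in Δ/Δ and 2516, 2958 and 3357 CPM in +/+ (log2 difference 0.47, SE 0.11, adjusted p = 0.00323). *Kdm3a*, a histone demethylase induced by low oxygen, fell by 0.75. The lower genes numbered 5 when +/+ replicate 2, +/+ replicate 3 or Δ/Δ replicate 1 was left out, and 2 with the *Ftl2-ps* term (*Pdk1* and *Pfkfb3*). *Pfkfb4* then had an adjusted p of 0.0514 and *Kdm3a* of 0.172.

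Antioxidant, iron storage and metal genes moved in both directions. *Prdx3*, the mitochondrial peroxiredoxin, had 88.8, 77.7, 68.5, 124 and 91.6 CPM in Δ/Δ, against 143, 177 and 221 CPM in +/+ (log2 difference -1.02, SE 0.13, adjusted p = 7.82e-07). *Gpx1*, a glutathione peroxidase, stood at 316, 468, 455, 336 and 353 CPM in Δ/Δ and at 576, 816 and 902 CPM in +/+ (log2 difference -1.03, SE 0.16, adjusted p = 1.83e-05). *Sod2* and *Prdx6*, which remove superoxide and peroxides, fell by 0.61 and 0.73. All 4 genes passed also with the *Ftl2-ps* term. The metallothioneins *Mt1* and *Mt2*, which bind zinc and copper and are close paralogs, rose by 0.73 and 1.12, and *Gclc*, the rate-limiting enzyme of glutathione synthesis, by 0.52, but none of these 3 passed with the term (adjusted p = 0.185 to 0.224). *Ftl1*, ferritin light chain, had 67.6, 103, 89.3, 71.5 and 80.8 CPM in Δ/Δ, against 74.7 CPM in +/+ replicate 1 and 30.9 to 43.2 CPM in the other +/+ libraries. Its pseudogene *Ftl2-ps* has near-identical sequence and the reverse pattern, so the call of *Ftl1* (log2 difference 0.95, adjusted p = 0.000553) is uncertain, and it was lost with the term (adjusted p = 0.764). In all, 5 of the 29 measured genes of the list were lower and 5 higher (3 without Δ/Δ replicate 1, 10 without Δ/Δ replicate 5), with a median of 0.21.

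Of 51 measured cell cycle genes 11 were lower and *Cdkn1c* alone was higher, with a median of -0.16 and 5 lower genes with the *Ftl2-ps* term. *Cdc6*, which loads the replicative helicase, had 20.8, 18.2, 19.9, 35.2 and 23.8 CPM in Δ/Δ, against 42.1, 52.5 and 56.3 CPM in +/+ (log2 difference -1.07, SE 0.18, adjusted p = 9.32e-05). *Ccnd1*, cyclin D1, stood at 25.7 to 33.1 CPM in Δ/Δ and at 44.8 to 63.7 CPM in +/+ (log2 difference -0.77, SE 0.15, adjusted p = 0.000618), which was lost with the term (adjusted p = 0.0914). *Ccne1* and the phosphatase gene *Cdc25b* fell by 0.96 and 1.34. The list's level was lower in all 5 Δ/Δ libraries (-0.25 to -0.13 relative to the +/+ mean) than in any +/+ library (-0.03 to 0.02). Replication-dependent histones counted 4 lower and 0 higher of 61, and the 6.56% lower was not above the 7.69% of all genes. The lower histones numbered 1 without Δ/Δ replicate 3, 2 without Δ/Δ replicate 2 or +/+ replicate 5 or 6, and 7 without Δ/Δ replicate 5. *Hist2h2ac* and *Hist1h1a* differed by -0.86 and -1.55. Cytoplasmic ribosomal proteins counted 7 lower and 0 higher of 81, a share close to the background, with 2 without +/+ replicate 2, 3 without Δ/Δ replicate 1 and 0 with the *Ftl2-ps* term, as for the histones. Many ribosomal protein and histone genes have near-identical copies, among which reads can be split.

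Among p53 target genes 5 of 29 were lower and 1 higher, with a median of 0.06. *Btg2*, an antiproliferative p53 target, had 3.02, 2.33, 3.14, 2.47 and 0.261 CPM in Δ/Δ, against 11.5, 13.4 and 24.5 CPM in +/+ (log2 difference -2.47, SE 0.30, adjusted p = 3.74e-07). *Ptp4a3*, a phosphatase gene, stood at 1.54 to 2.99 CPM in Δ/Δ and at 13.4 to 28.2 CPM in +/+ (log2 difference -2.63, SE 0.27, adjusted p = 1.37e-08). These are the list members that passed with the *Ftl2-ps* term. *Pidd1* and *Aen*, which promote cell death, fell by 1.28 and 0.84 (adjusted p = 0.263 and 0.114 with the term). *Aen* was nevertheless at 16.8 CPM in Δ/Δ replicate 5, above the highest +/+ library (15.7 CPM). *Gdf15*, a stress hormone and the higher gene, had 26 reads over the Δ/Δ libraries, at 0 to 1.31 CPM, and 0 in +/+, and its call was lost when most single libraries were left out. The lower genes numbered 3 without +/+ replicate 2 or without Δ/Δ replicate 2.

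Transporters of nutrients, vitamins and metals moved in both directions, 6 lower and 6 higher of 43 (median 0.17), 2 and 4 with the *Ftl2-ps* term, and 3 either way without Δ/Δ replicate 3, with 3 lower also without Δ/Δ replicate 1. *Slc39a8*, an importer of zinc and manganese, had 150.0, 267, 212, 251 and 458 CPM in Δ/Δ, against 606, 749.6 and 847 CPM in +/+ (log2 difference -1.57, SE 0.17, adjusted p = 2.08e-08). With *Slc30a10*, this made 2 metal transporters lower without overlap and lower also with the *Ftl2-ps* term. *Abcg2*, an efflux pump, and *Slc13a4*, a sulfate transporter, fell by 0.36 and 0.50 (adjusted p = 0.353 and 0.378 with the term). *Slc13a4* was nevertheless at 972 CPM in Δ/Δ replicate 5, above the highest +/+ library (876 CPM). *Slc22a2*, a cation transporter next to *Slc22a3* in the genome, had 20.03, 41.3, 35.8, 12.03 and 41.0 CPM in Δ/Δ, against 3.43, 9.80 and 25.6 CPM in +/+ (log2 difference 1.38, SE 0.38, adjusted p = 0.014). *Abcc2*, another efflux pump, rose by 0.80 (adjusted p = 0.243 with the term).

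Many genes of mesoderm and its extracellular matrix were higher. In the 9 lists of mesoderm and matrix together, 66 of 271 measured genes (24.4%) were higher and 8 lower, with a median of 0.37. With the *Ftl2-ps* term 21 were higher and 2 lower. The extraembryonic mesoderm marker sum was also higher (1422 to 2456 CPM in Δ/Δ and 882 to 1129 CPM in +/+), and its part in the result was not tested. Among matrix glycoproteins and proteoglycans 18 of 55 were higher and 1 lower, with a median of 0.53. *Lum*, the collagen-binding proteoglycan lumican, had 1138, 1050.1, 1165, 958 and 507 CPM in Δ/Δ, against 199, 276 and 384 CPM in +/+ (log2 difference 1.69, SE 0.26, adjusted p = 1.47e-05). *Postn*, periostin, had 499.9, 524, 534, 325 and 121 CPM in Δ/Δ and 53.6, 85.6 and 97.9 CPM in +/+ (log2 difference 2.00, SE 0.34, adjusted p = 6.90e-05). *Vcan*, versican, a proteoglycan of loose mesenchyme and the early heart, stood at 690.4, 802, 863, 655 and 839 CPM in Δ/Δ, against 260.2, 321 and 427 CPM in +/+ (log2 difference 1.24, SE 0.16, adjusted p = 1.23e-06). Replicate 5 was the lowest Δ/Δ library for *Lum* and *Postn* but not for *Vcan*. *Gpc6*, a glypican, rose by 1.14, and *Bgn*, biglycan, known also from endothelium, fell by 1.25 (adjusted p = 0.0991 and 0.0551 with the *Ftl2-ps* term). With that term 5 genes of the list were higher and 0 lower.

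Of 24 collagen genes outside the basement membrane, 8 were higher and 0 lower, with a median of 0.65. *Col1a2*, a chain of type I collagen, had 303, 327, 352, 189 and 67.9 CPM in Δ/Δ, against 51.3, 68.1 and 98.6 CPM in +/+ (log2 difference 1.51, SE 0.32, adjusted p = 0.00109). *Col3a1*, type III collagen, stood at 150.4, 193, 149.7, 99.5 and 45.1 CPM in Δ/Δ and at 19.9, 37.7 and 42.4 CPM in +/+ (log2 difference 1.55, SE 0.32, adjusted p = 0.000988). Δ/Δ replicate 5 was inside the +/+ range for *Col1a2* and just above it for *Col3a1*, and the list's level was -0.16 in that library, against 1.12 to 1.66 in the other 4 Δ/Δ libraries and -0.29 to 0.23 in +/+. *Col5a2* and *Col11a1*, chains of fibril-nucleating collagens, rose by 1.63 and 1.90. The higher collagens numbered 5 without Δ/Δ replicate 3 and 5 with the *Ftl2-ps* term.

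Basement membrane genes counted 8 higher and 0 lower of 30 (median 0.37), 5 higher without Δ/Δ replicate 3, 13 without Δ/Δ replicate 5 and 3 with the *Ftl2-ps* term. The Fraser complex genes *Frem1*, *Fras1* and *Frem2*, whose proteins link epithelium to mesenchyme, rose by 1.08, 1.06 and 0.78, and *Itgb4*, an integrin that holds epithelia on laminin, by 1.48, of which *Frem2* did not pass with the term (adjusted p = 0.0644). *Frem1* had 65.8, 74.7, 67.9, 68.3 and 50.7 CPM in Δ/Δ, against 17.2, 29.6 and 40.1 CPM in +/+ (SE 0.19, adjusted p = 0.000162). Of 33 matrix proteases and their inhibitors, 5 were higher and 2 lower. *Adamts5*, which cleaves versican, and *Tll1*, a tolloid-like protease of heart development, were the lower ones, with 12 and 0 reads over the Δ/Δ libraries, against 319 and 109 reads over the +/+ libraries. *Adamts9* and *Adamts18* rose by 0.53 and 1.42. None of these 4 passed with the *Ftl2-ps* term (adjusted p = 0.153 to 0.255), and the higher proteases numbered 1 with it and 3 when +/+ replicate 1, 2 or 3 or Δ/Δ replicate 2 was left out. Among mesothelium and allantois genes the cadherins *Cdh11* and *Cdh3* rose by 0.93 and 0.69, as 2 of 19 (4 without Δ/Δ replicate 5).

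Transcription factors of cardiac and lateral mesoderm gave 6 higher and 2 lower of 25. *Hand2*, a basic helix-loop-helix factor of heart and extraembryonic mesoderm, had 20.4, 19.3, 22.0, 17.9 and 23.5 CPM in Δ/Δ, against 4.31, 9.07 and 12.5 CPM in +/+ (log2 difference 1.38, SE 0.21, adjusted p = 1.67e-05). *Hand1*, its relative, stood at 176, 224, 301, 258 and 377 CPM in Δ/Δ and at 111, 151 and 193 CPM in +/+ (log2 difference 0.88, SE 0.17, adjusted p = 0.000385). *Mef2c*, which acts in heart and in endothelium, went the other way, with 11.3, 9.33, 10.5, 20.3 and 7.92 CPM in Δ/Δ, against 19.5, 30.6 and 47.7 CPM in +/+ (log2 difference -1.41, SE 0.25, adjusted p = 0.000138). These 3 genes passed with the *Ftl2-ps* term. *Tbx20* rose by 1.02 and *Hopx* fell by 0.99, without passing with it (adjusted p = 0.224 and 0.507). Of 37 mesenchymal factors 4 were higher and 2 lower (7 higher without Δ/Δ replicate 5). *Creb3l1* and *Bnc2*, which promote collagen expression, rose by 0.81 and 0.95, and *Zeb2* fell by 0.51.

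Heart muscle genes counted 8 higher and 1 lower of 31, with a median of 0.48, but a wild-type library shared the rise. The list's level was 0.52 to 1.52 in the Δ/Δ libraries and 1.18 in +/+ replicate 1, against -0.53 to 0.18 in the other +/+ libraries. *Actc1*, cardiac actin, had 15.1, 24.3, 26.0, 40.7 and 81.7 CPM in Δ/Δ, against 29.2 CPM in +/+ replicate 1 and 0.271 to 11.2 CPM in the other +/+ libraries (log2 difference 2.23, SE 0.71, adjusted p = 0.0317). *Myl7*, an atrial myosin light chain, likewise had 5.29 to 29.6 CPM in Δ/Δ and 15.3 CPM in +/+ replicate 1. *Tnni1*, the slow troponin I of embryonic heart, had at least 15.79 CPM in every Δ/Δ library and at most 14.2 CPM in any +/+ library (log2 difference 1.40, SE 0.30, adjusted p = 0.00143). *Myh6* had 1.04 to 4.05 CPM in Δ/Δ and 0 to 3.97 CPM in +/+, and *Myl2* had 37 reads over the Δ/Δ libraries and 0 over the +/+ libraries, while *Mybpc3* fell by 1.33. None of *Actc1*, *Myl7*, *Tnni1*, *Myh6* and *Myl2* passed with the *Ftl2-ps* term (adjusted p = 0.237 to 0.914). The higher genes numbered 1 with the term, 4 without +/+ replicate 2 and 5 without +/+ replicate 3 or 4 or Δ/Δ replicate 2, 4 or 5. The heart marker sum was 48.0 to 160.5 CPM in Δ/Δ and 11.7 to 76.0 CPM in +/+, and its part in the result was not tested.

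Smooth muscle and mural cell genes gave 7 higher and 0 lower of 24 (median 0.33), 3 without +/+ replicate 2 or without Δ/Δ replicate 3, and 0 with the *Ftl2-ps* term. *Acta2*, smooth muscle actin, had 155, 207, 206, 221 and 128 CPM in Δ/Δ, against 99.7, 112 and 143 CPM in +/+ (log2 difference 0.60, SE 0.17, adjusted p = 0.0125). *Ednra*, the endothelin A receptor, and *Cspg4*, a pericyte proteoglycan, rose by 1.02 and 1.04. With the term these had adjusted p of 0.129, 0.525 and 0.0761.

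**Figure D3:**
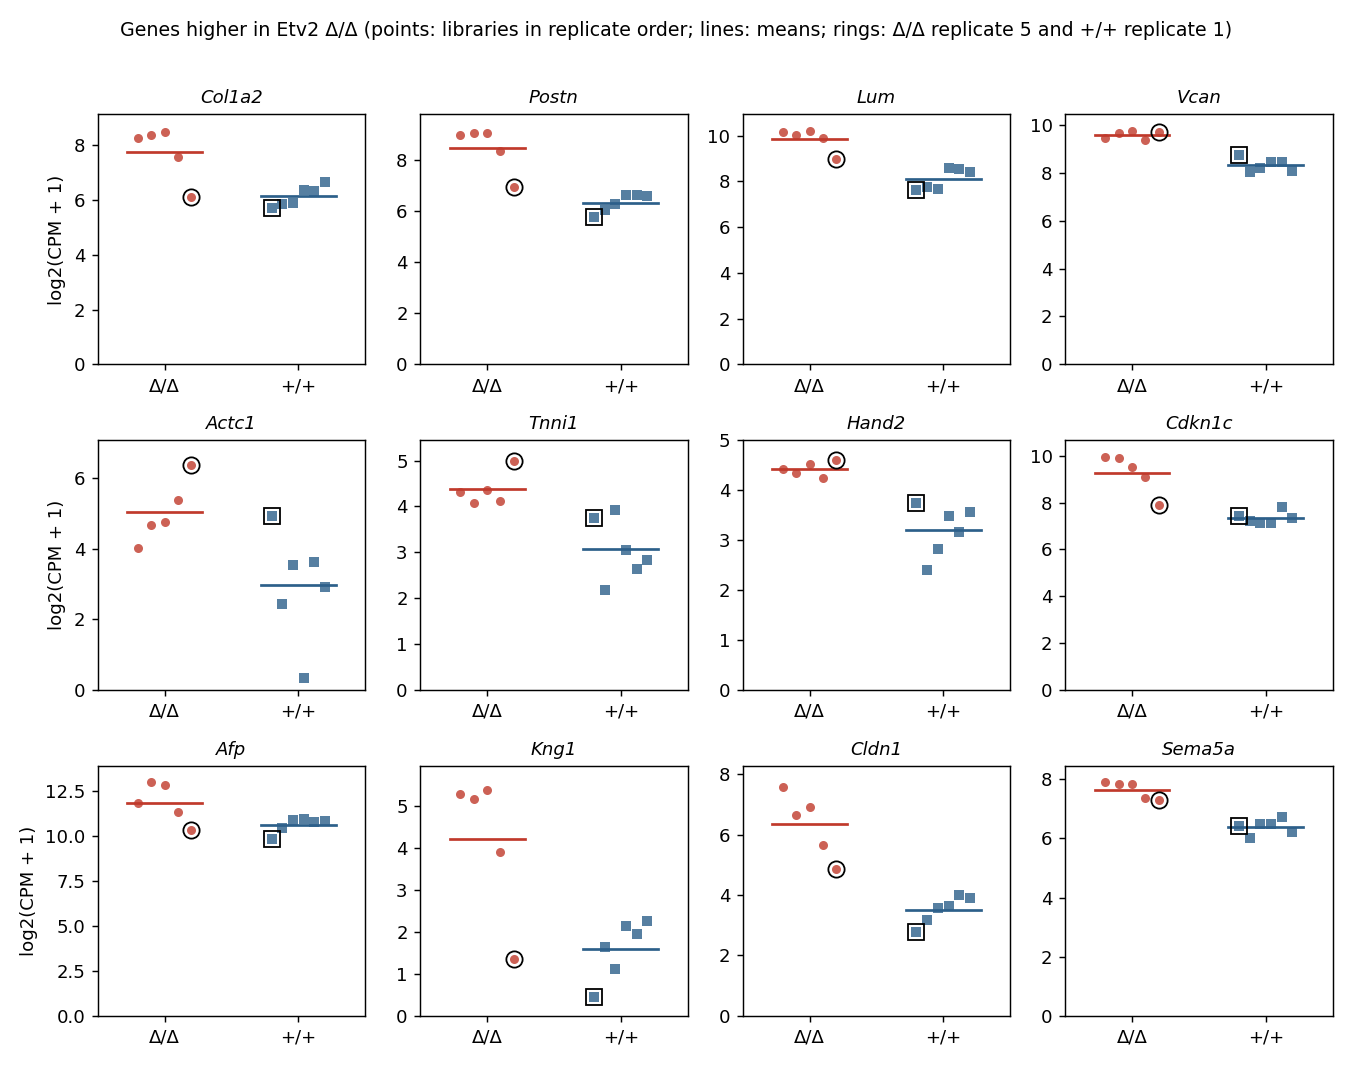
log2(CPM + 1) of 12 genes that were higher in *Etv2* Δ/Δ, with Δ/Δ libraries as red circles on the left and +/+ libraries as blue squares on the right of each panel, and lines at the group means. Rings mark Δ/Δ replicate 5, which lies near the +/+ libraries for *Col1a2*, *Postn*, *Afp* and *Kng1*, and +/+ replicate 1, which lies among the Δ/Δ libraries for *Actc1*.

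Visceral endoderm genes were more often higher than lower. In its 9 lists, which include epithelial junction and hedgehog genes, 41 of 255 (16.1%) were higher and 7 lower, with a median of 0.29. With the *Ftl2-ps* term 23 were higher and 2 lower, and without Δ/Δ replicates 1 and 2 these were 20 and 4. Without Δ/Δ replicate 3, 26 were higher, and 3 to 4 were lower without Δ/Δ replicate 1, 3 or 4 or +/+ replicate 4 or 5. The marker sums of this layer overlapped between the groups. *Afp*, alpha-fetoprotein, had 3613, 8094, 7317, 2568 and 1313 CPM in Δ/Δ, against 926, 1819 and 1994 CPM in +/+ (log2 difference 1.27, SE 0.35, adjusted p = 0.0118). *Kng1*, the kininogen gene, stood at 38.5, 35.2, 40.9, 14.0 and 1.57 CPM in Δ/Δ and at 0.361, 2.49 and 3.83 CPM in +/+ (log2 difference 2.52, SE 0.60, adjusted p = 0.00403). In both genes replicates 1 to 4 were above all +/+ libraries and replicate 5 was within their range. *Vtn*, vitronectin, rose by 1.77 at 1.89 to 4.08 CPM, *Fgg*, fibrinogen gamma, rose by 0.92, and *F5*, coagulation factor V, fell by 0.98. The plasma protein list counted 5 higher and 1 lower of 36, with 3 higher without Δ/Δ replicate 3, 8 without Δ/Δ replicate 4 and 9 without Δ/Δ replicate 5. *Fgg* (adjusted p = 0.0512) and *F5* (0.261) lost their call with the *Ftl2-ps* term.

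Among lipoprotein and uptake genes a few were higher and 0 were lower. The share higher was 8.33% of lipoprotein and 6.25% of lysosomal genes, near the 5.60% of all genes, and 17.4% of endocytic genes. *Dgat2*, of triglyceride synthesis, had 109.6, 172, 154, 149 and 134 CPM in Δ/Δ, against 79.8, 91.8 and 103 CPM in +/+ (log2 difference 0.62, SE 0.12, adjusted p = 0.000655), and with *Lcat* (1.51) it made 2 of 24 lipoprotein genes that were higher. *Apob*, the core protein of the lipoproteins this epithelium secretes, had 19064 to 33617 CPM in Δ/Δ and 21229.7 to 26490.4 CPM in +/+ (log2 difference 0.22, adjusted p = 0.338). *Fcgrt*, the neonatal Fc receptor that carries antibodies across epithelia, rose most among the 4 of 23 endocytic genes that were higher, with 26.8, 34.3, 20.49, 17.4 and 32.2 CPM in Δ/Δ, against 2.89, 7.98 and 10.53 CPM in +/+ (log2 difference 1.77, SE 0.32, adjusted p = 0.000208). *Cubn* and *Lrp2*, the main uptake receptors of this epithelium, differed by 0.12 and 0.34 and did not pass (adjusted p = 0.576 and 0.0553). The endocytic count was 1 with the *Ftl2-ps* term, 2 without Δ/Δ replicate 2 or 3 and 8 without Δ/Δ replicate 5. *Lipa*, the lysosomal acid lipase, had 281, 291, 350.1, 221 and 229.9 CPM in Δ/Δ and 120.2, 176 and 204 CPM in +/+ (log2 difference 0.74, SE 0.12, adjusted p = 5.39e-05), as 1 of 2 lysosomal genes of 32 that were higher. *Dgat2*, *Fcgrt* and *Lipa* passed with the *Ftl2-ps* term, and *Lcat* did not (adjusted p = 0.316).

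Endoderm transcription factors counted 4 higher and 0 lower of 26 (2 without +/+ replicate 2), namely *Gata6* (log2 difference 0.66), *Prdm1* (0.70), *Rxra* (0.60) and *Sall4* (0.49), and 0 with the *Ftl2-ps* term (adjusted p = 0.221 to 0.667 for these 4). *Hnf4a*, a main regulator of this epithelium, had 296 to 376 CPM in Δ/Δ and 249 to 310.5 CPM in +/+ (log2 difference 0.29, adjusted p = 0.122). Epithelial adhesion genes gave 8 higher and 0 lower of 29, and 4 without Δ/Δ replicate 3 or with the *Ftl2-ps* term. *Dsc2*, a desmosomal cadherin, had 411, 283, 309, 288 and 247 CPM in Δ/Δ, against 144, 175 and 199 CPM in +/+ (log2 difference 0.79, SE 0.12, adjusted p = 1.75e-05). The keratin genes *Krt7* and *Krt8* rose by 1.68 and 0.80, and *Pkp2*, a desmosomal plakophilin, by 0.55. Tight junction genes gave 4 higher and 0 lower of 25, with *Ocln* (0.73), *Patj* (0.43) and *Cldn6* (0.37) beside *Cldn1*. *Dsc2*, *Krt7*, *Cldn6* and *Cldn1* passed with the *Ftl2-ps* term, and *Krt8*, *Pkp2*, *Ocln* and *Patj* did not (adjusted p = 0.0602 to 0.225).

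Hedgehog signalling, which passes from endoderm to the mesoderm below it, gave 6 higher and 0 lower of 17, with a median of 0.65 and 2 higher with the *Ftl2-ps* term. *Ptch1*, receptor and target of the pathway, had 232, 336, 419, 303 and 417 CPM in Δ/Δ, against 186, 219 and 240.4 CPM in +/+ (log2 difference 0.65, SE 0.15, adjusted p = 0.00283). *Hhip*, a target that binds the ligand, stood at 42.7, 39.6, 43.9, 39.3 and 28.6 CPM in Δ/Δ and at 13.7, 16.5 and 20.8 CPM in +/+ (log2 difference 1.01, SE 0.25, adjusted p = 0.00627). *Gli1*, the target most used as a readout, rose by 1.35, and *Foxf2*, a forkhead target in mesenchyme, by 1.22. Only Δ/Δ replicate 5 (11.1 CPM) was above the +/+ range of *Gli1*, which reached 4.71 CPM. The list's level was 0.48 to 0.93 in Δ/Δ and -0.17 to 0.21 in +/+, with no overlap, as in several other lists. *Gli1* (adjusted p = 0.0481) and *Foxf2* (0.0169) passed with the term, and *Ptch1* (0.115) and *Hhip* (0.0517) did not.

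In the BMP, activin and TGF-beta pathway 8 genes were higher and 2 lower of 40 (median 0.26). *Tgfb1*, the ligand gene, had 3.02, 1.85, 0.606, 2.47 and 10.7 CPM in Δ/Δ, against 5.68, 10.6 and 17.5 CPM in +/+ (log2 difference -1.59, SE 0.33, adjusted p = 0.000938), with Δ/Δ replicate 5 inside the +/+ range. *Tgfbr3*, a co-receptor, rose in every Δ/Δ library above the +/+ range, with 246, 303, 342, 271 and 262 CPM in Δ/Δ and 148, 165 and 198 CPM in +/+ (log2 difference 0.75, SE 0.12, adjusted p = 3.55e-05). *Bmp7* fell by 0.63, and *Bmpr1a* and *Smad9*, a receptor and a transducer of BMP signals, rose by 0.39 and 0.50. *Tgfb1* and *Tgfbr3* passed with the *Ftl2-ps* term, and *Bmp7*, *Bmpr1a* and *Smad9* did not (adjusted p = 0.167 to 0.499). The higher genes numbered 2 with the term, 3 without +/+ replicate 2 and 5 without +/+ replicate 3 or Δ/Δ replicate 3. The Wnt pathway gave 4 higher and 0 lower of 44 (2 higher without +/+ replicate 2), and 0 with the term. The 9.09% higher was near the 5.60% of all genes. Among these 4 were the antagonist *Dkk1* (1.51) and the receptor gene *Ror1* (1.06).

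Retinoid genes gave 5 higher and 0 lower of 21, with 3 without +/+ replicate 2, 2 without Δ/Δ replicate 3 and 1 with the *Ftl2-ps* term. *Crabp2*, which delivers retinoic acid to its nuclear receptor, had 37.8, 36.6, 35.1, 32.4 and 61.4 CPM in Δ/Δ, against 6.42, 9.41 and 18.1 CPM in +/+ (log2 difference 1.98, SE 0.30, adjusted p = 1.70e-05; 0.0302 with the *Ftl2-ps* term). *Rbp2* and *Crabp1*, further retinoid carriers, rose by 1.42 and 1.39 and did not pass with the term (adjusted p = 0.085 and 0.611). Guidance genes, which steer cells as well as axons, gave 7 higher and 1 lower of 47 (3 and 0 with the term). *Sema5a*, a semaphorin, stood at 237, 229, 228, 165 and 158 CPM in Δ/Δ and at 63.9, 86.5 and 105 CPM in +/+ (log2 difference 1.26, SE 0.15, adjusted p = 1.15e-07). *Slit2* and *Slit3* rose by 0.90 and 1.06 and *Epha2*, an ephrin receptor, fell by 1.41. *Sema5a* and *Slit2* passed with the term, and *Slit3* (adjusted p = 0.157) and *Epha2* (0.0914) did not.

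Imprinted genes, which are expressed from one parental copy and often act in growth, gave 18 higher of 44 (40.9%), with 1 lower and a median of 0.44. The list's level was 0.45 to 0.74 in Δ/Δ and -0.18 to 0.13 in +/+, with no overlap, as in several other lists. *Peg10*, a gene derived from a retrotransposon and needed in the placenta, had 6446, 9202, 9230.2, 6730.2 and 8470.1 CPM in Δ/Δ, against 3607, 3891 and 5298 CPM in +/+ (log2 difference 0.99, SE 0.14, adjusted p = 5.97e-06). *Peg3*, a zinc finger gene expressed from the paternal copy, stood at 3683, 3614, 4803, 3643 and 3458 CPM in Δ/Δ and at 2229.6, 2310.1 and 2441 CPM in +/+ (log2 difference 0.72, SE 0.12, adjusted p = 4.84e-05). Genes of both parental origins took part, since *Cdkn1c* is expressed from the maternal and *Igf2* from the paternal copy. *Grb10*, an adaptor that dampens insulin and IGF signals, was the lower one, with 429, 401, 607, 443 and 433 CPM in Δ/Δ, against 559.7, 679 and 751 CPM in +/+ (log2 difference -0.50, SE 0.11, adjusted p = 0.00218; 0.171 with the *Ftl2-ps* term). With the term 7 of the list were higher and 0 lower, among them *Peg10*, *Peg3* and *Cdkn1c*.

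Fatty acid genes moved in both directions. *Ehhadh*, of peroxisomal oxidation, had 172, 139, 172, 149.9 and 205 CPM in Δ/Δ, against 48.5, 82.4 and 101 CPM in +/+ (log2 difference 1.17, SE 0.17, adjusted p = 1.10e-05). *Hadh*, of mitochondrial oxidation, and *Acsl1*, which activates fatty acids, rose by 0.64 and 0.74. *Acaca*, the first enzyme of fatty acid synthesis, fell by 0.60, while *Scd2*, a desaturase, rose by 0.48. *Acsl4* and *Acsl5* fell by 0.48 and 1.16 and *Angptl4*, a lipase inhibitor, by 1.48. In all 7 were higher and 4 lower of 33 (median 0.15). The 4 higher genes named here passed with the *Ftl2-ps* term and the 4 lower ones did not (adjusted p = 0.118 to 0.425).

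**Figure D4:**
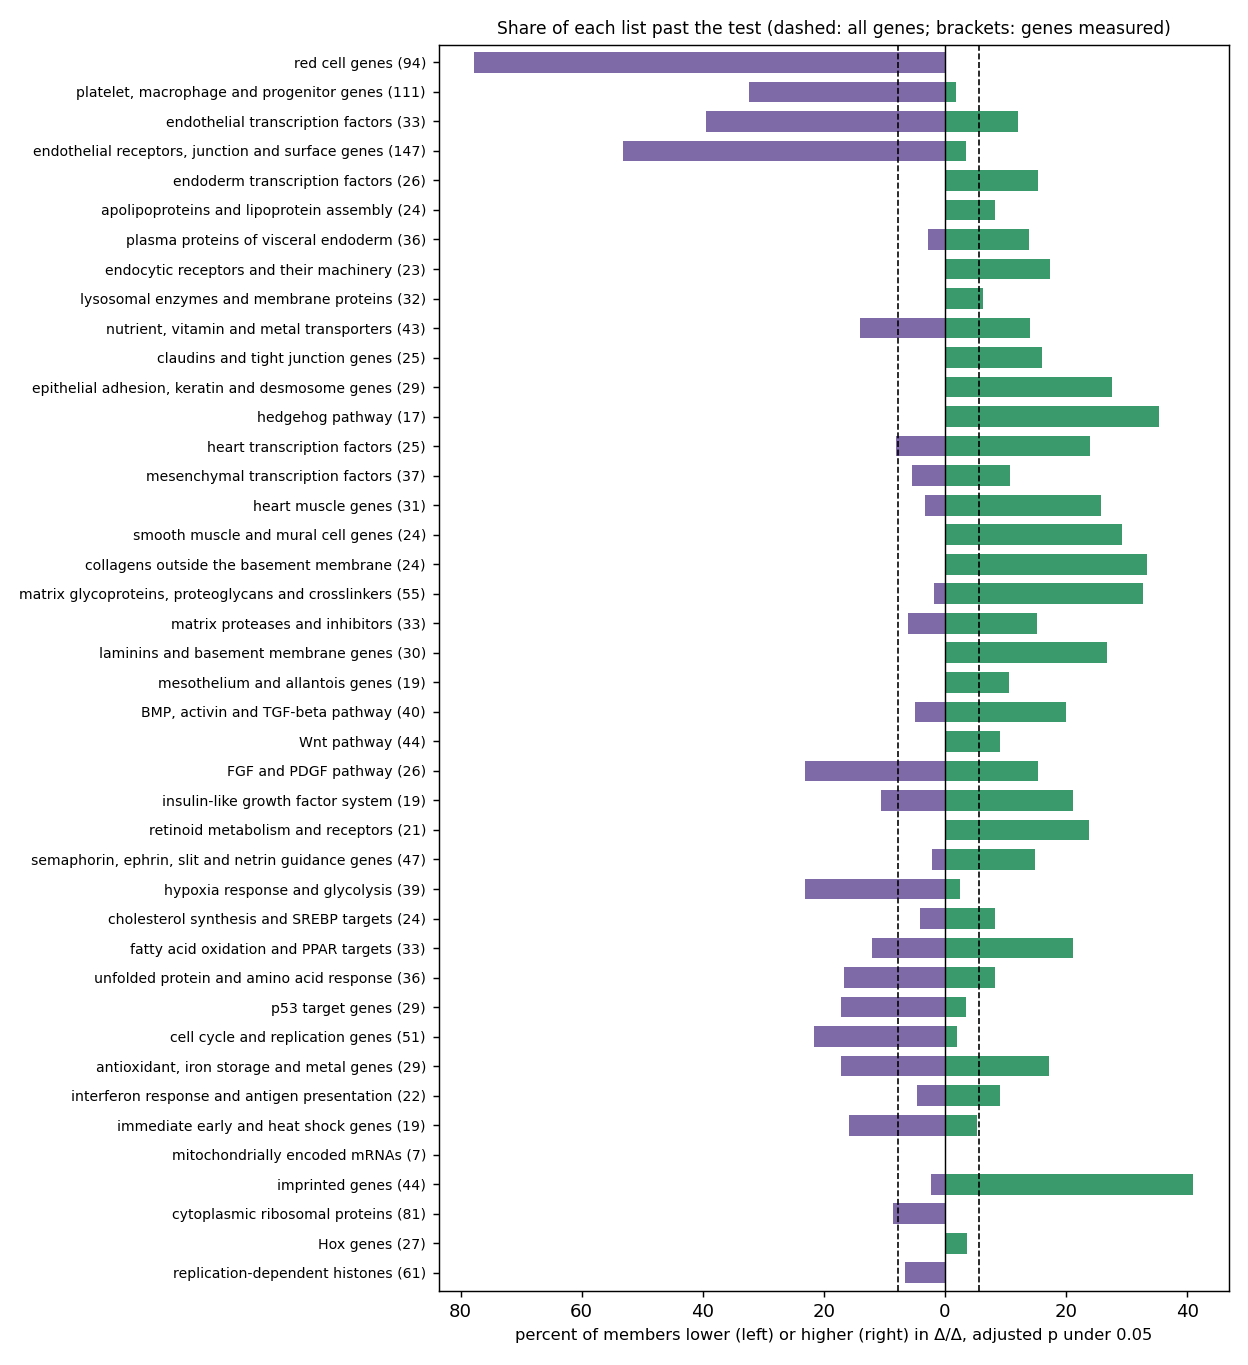
Percent of the measured genes of each list that were lower (purple, left) or higher (green, right) in *Etv2* Δ/Δ at an adjusted p under 0.05, with the number measured in brackets. The dashed lines are the shares over all genes, 7.69% lower and 5.60% higher; the blood and endothelium lists extend to the left, and imprinted, hedgehog, collagen and matrix lists to the right.

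Other classes showed few calls. Of 7 mitochondrially encoded mRNAs measured, 0 passed, and *mt-Nd1* had 11602 to 24829.7 CPM in Δ/Δ and 11345 to 21078 CPM in +/+ (log2 difference 0.06, adjusted p = 0.932). Of 27 Hox genes only *Hoxb8* passed, at 0.220 to 3.497 CPM in Δ/Δ and 0 to 0.348 CPM in +/+ (log2 difference 0.80, adjusted p = 0.0223). Cholesterol synthesis gave 2 higher and 1 lower of 24, with *Stard4*, a sterol carrier, higher by 0.46 and *Idi1* lower by 0.95. Interferon genes gave 2 higher and 1 lower of 22, with *Ddx58*, a sensor of viral RNA, at 57.8, 51.1, 58.4, 36.5 and 28.8 CPM in Δ/Δ, against 11.8, 18.7 and 30.6 CPM in +/+ (log2 difference 1.22, SE 0.27, adjusted p = 0.00228). These counts are near the background.

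Markers of tissues next to the yolk sac were looked at for every library. Trophoblast markers summed to 15.9 to 45.3 CPM in Δ/Δ and 29.1 to 43.5 CPM in +/+, so the ranges overlapped. Of the 13 measured, 2 (*Tpbpa* and *Synb*) had no read in Δ/Δ and 0 had none in +/+, and 0 were called in either direction. Decidua markers summed to 0.440 to 29.2 CPM in Δ/Δ and 0.0958 to 3.59 CPM in +/+, the highest value being Δ/Δ replicate 5, where *Pgr*, the progesterone receptor, stood at 19.5 CPM. That library also had 7.05 CPM of Y-linked genes beside 639 CPM of *Xist*. Neural markers summed to 0.756 to 5.22 CPM in Δ/Δ and 0.2497 to 4.51 CPM in +/+, paraxial mesoderm markers to 0.110 to 0.756 and 1.04 to 2.504 CPM, and surface ectoderm markers to 8.10 to 30.7 and 10.2 to 20.6 CPM. Parietal endoderm markers summed to 377 to 599.7 CPM in Δ/Δ and 302 to 394 CPM in +/+. Of these 8 markers 3 were higher (37.5%, against 5.60% of all genes) and 1 was lower, with a median of 0.66. With the *Ftl2-ps* term 1 was higher and 1 lower. *Thbd*, a marker of that layer and of endothelium, fell by 2.32, and *Lamb1* rose by 0.42. What part these tissues had in the differences between genotypes was not tested.

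**Figure D5:**
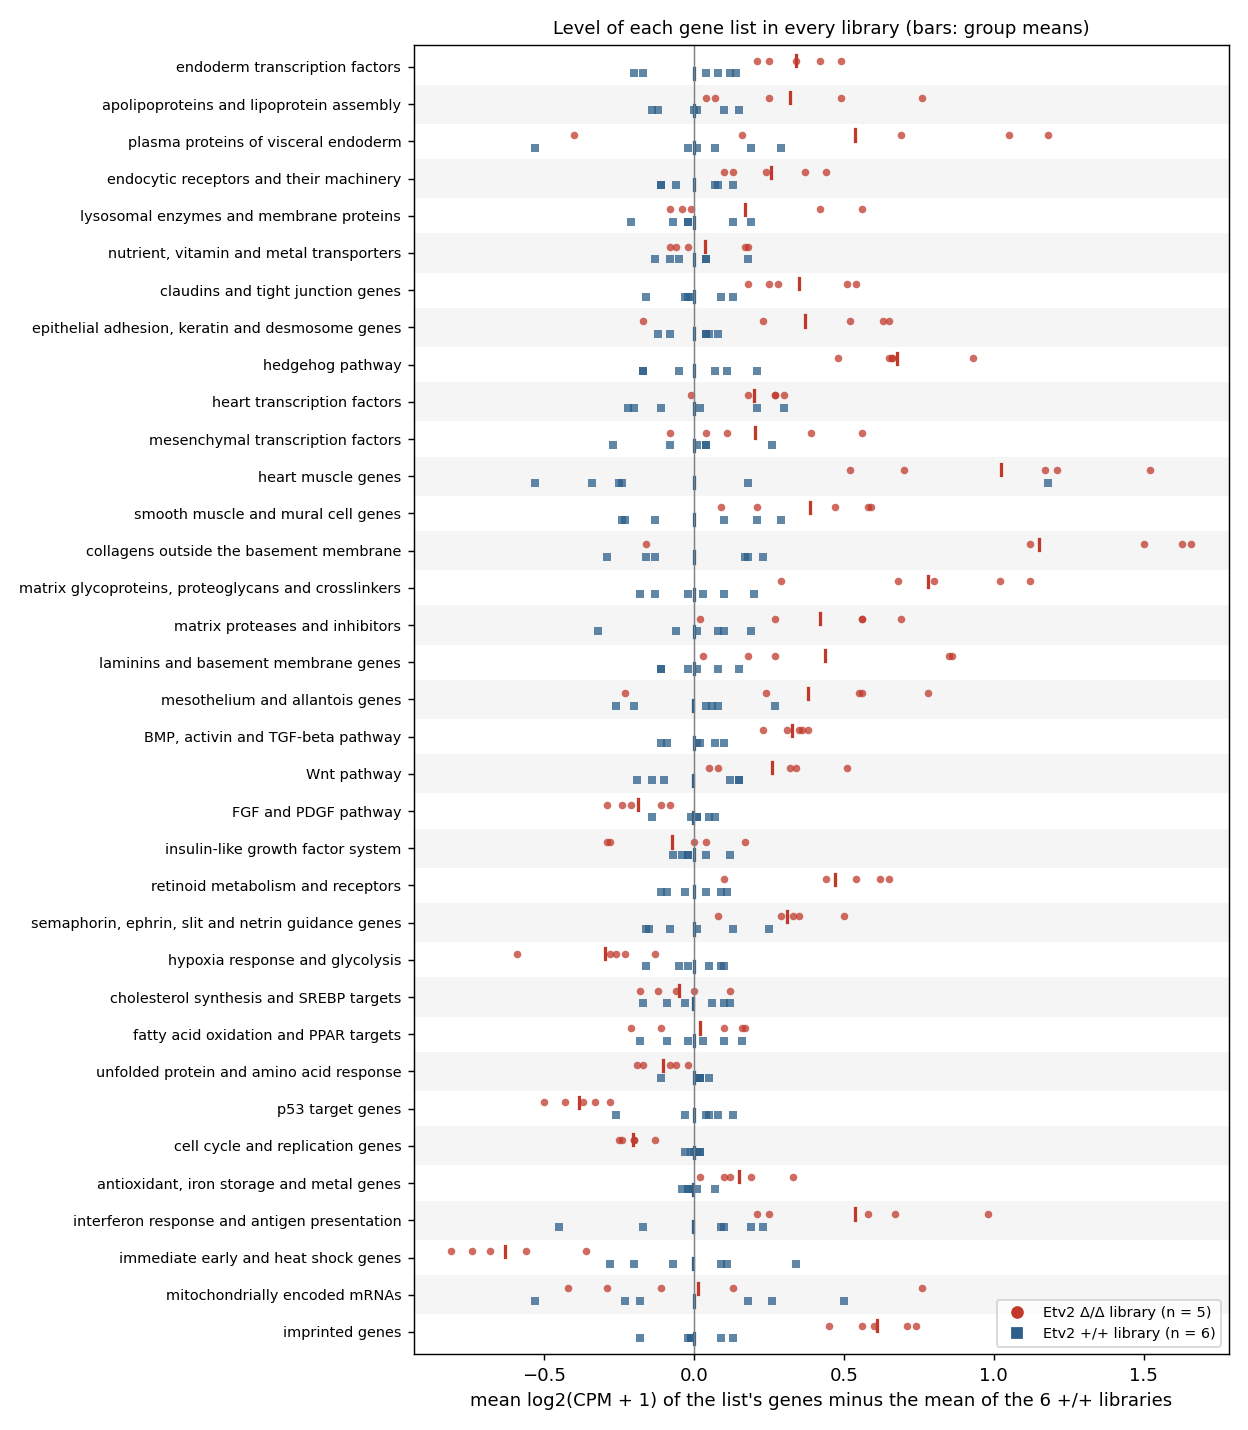
Mean log2(CPM + 1) of the genes of each list in every library, relative to the mean of the 6 *Etv2* +/+ libraries, for list members with a mean log2 of at least 2 in either group. Red circles are Δ/Δ libraries, placed above the blue squares of the +/+ libraries, and bars are group means. Imprinted and hedgehog genes separate without overlap, but so do other lists. Matrix glycoprotein, BMP, endoderm transcription factor and tight junction lists are among those higher in Δ/Δ. Cell cycle, immediate early and p53 lists are among those lower. In the heart muscle list 1 +/+ library lies at 1.18, among the Δ/Δ libraries, and in the collagen list 1 Δ/Δ library lies at -0.16, among the +/+ libraries.

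The neighbourhood of *Etv2* was compared because the Δ allele is inherited with flanking chromosome 7. Within 5, 10 and 20 Mb of *Etv2*, 11.7%, 11.4% and 10.0% of the 179, 237 and 389 genes were called in either direction, against 13.3% of all 18427 genes with a gene model. Within 10 Mb, 14 were lower and 13 higher (8 higher without Δ/Δ replicate 1, 6 without Δ/Δ replicate 3). Across the autosomes and the X chromosome the share ran between 10.5% on chromosome 17 and 15.4% on chromosome 18. The share within 5, 10 or 20 Mb of *Etv2* was thus not above that over all genes. Windows this wide can hide changes close to the gene. The called genes nearest to *Etv2* were *Proser3*, *Arhgap33os* and *Prodh2*, all higher (log2 differences 1.58, 0.62 and 1.52). Further away, *Fxyd5* (399.1 kb) and *Polr2i* were lower (-1.65 and -0.63), and *Fxyd3*, *Zfp568* and *Zfp74* were higher (1.28, 0.37 and 0.78). The cause was not tested.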

How the data were processed

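RNA-seq of yolk sac was deposited as 1 table of 18477 Ensembl genes by 31 libraries. According to the methods of the study and its processing notes, reads were trimmed with fastq-mcf, aligned to mm9 with STAR 2.5.2a and counted per gene with featureCounts of the Subread package. The values deposited by the authors are log2(CPM + 1) after edgeR normalization factors, whereas log CPM had been assumed when the tests were chosen. In each of the 31 libraries 100 percent of the values were whole multiples of 1 read (within 0.01 of a read), which gave the depths. The table also holds 9 columns of the authors' own comparisons (logFC, logCPM, LR, PValue and FDR), which were not used.

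Groups and sex came from the labels. The comparison was fitted with limma 3.58.1 in R 4.3.3 (trend, genotype and labelled sex, all 31 libraries, 24 residual degrees of freedom), with Benjamini-Hochberg adjustment over all 18477 genes and a threshold of 0.05. No gene was filtered out. Nothing in the labels says that libraries of a genotype came from separate litters, so p-values measure the spread between these libraries. The script was tested on simulated data. The genes named are *Etv2*, the 15 largest falls and 15 largest rises outside the blood and endothelium lists (called, no overlap, mean log2 of at least 2 in a group), up to 4 called members per direction of each list by adjusted p, and the 2 with most reads of a list with none. *Apob*, *Cubn*, *Lrp2*, *Hnf4a* and marker genes, the called genes near *Etv2*, and the genes with a promoter motif that did not pass, were added after their values were seen. Members and lists were chosen with earlier results of these data known. Symbols came from the table, where 872 genes have none and 22 have a date in its place, and 148 list entries were not found. Results of 3 genes that the rule names are not reported here. Alternatives were another pseudocount, scaling, filter, sex term, block, residual component, *Ftl2-ps* term, threshold, voom, fewer groups and omitted libraries.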

Additional observations from a re-analysis of the deposited data

Results flagged for a closer look

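A single library stood apart from the rest of its group by Dixon's criterion in 10 of the 140 groups of values checked. Chance flags about 1 in 20 groups of normally distributed values. That rate does not hold for genes near 0, where a few reads in 1 library are enough. In *Etv2* Δ/Δ, 6 of the 10 flagged groups were genes near 0 in the other libraries, on the log2(CPM + 1) scale. *Klhl4* was at 2.99 in replicate 5 (0.00 to 0.57 in the others), *Gja6* at 0.52 in replicate 5 (0.00 to 0.06), *Pkhd1l1* at 0.46 in replicate 1 (0.00 to 0.12), *Cpne7* at 0.47 in replicate 3 (0.00), *Tspan32* at 0.39 in replicate 4 (0.00) and *Nrros* at 0.60 in replicate 4 (0.00 to 0.06). *Crabp2* was at 5.96 in Δ/Δ replicate 5, against 5.06 to 5.28 in the other Δ/Δ libraries. In *Etv2* +/+, the library apart was replicate 1 in 3 cases. Its level of the plasma protein list was -0.53 (-0.02 to 0.29 in the others), that of the unfolded protein and amino acid response list was -0.11 (0.01 to 0.05), and *Hbb-bh0* was at 5.93 (7.39 to 8.05). This is also the +/+ library with 0.181 CPM of *Ftl2-ps*, against 36.5 CPM or more in the others. It lay nearer to the Δ/Δ mean than to the mean of the other +/+ libraries for 178 of the 1420 lower genes (12.5%) and 164 of the 1035 higher genes (15.8%). The same shares were 6.62% to 9.58% and 7.83% to 13.6% for the other +/+ libraries.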

How the results depend on the processing

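Counts are given as lower, then higher genes, with the 1420 and 1035 genes of the whole table first, the 81 and 168 genes of the 38 lists next and the 14 and 13 genes within 10 Mb of *Etv2* last. They were 588 and 298, 26 and 68, and 7 and 5 with the *Ftl2-ps* term. With only the 2 groups compared in the fit they were 807 and 587, 45 and 101, and 7 and 2. Without Δ/Δ replicates 1 and 2 they were 914 and 664, 48 and 109, and 10 and 4. At an adjusted p under 0.01 they were 803 and 449, 47 and 88, and 8 and 5, and with a 2-fold limit 559 and 352, 36 and 76, and 4 and 5. Leaving out 1 library gave 6 to 14 higher genes near *Etv2*, and 1101 to 1492 lower and 723 to 1214 higher genes in all. Another pseudocount, filter, scaling, sex term or voom moved the 1420 and 1035 by less than 1.5 times. None of the 216 named genes that passed reversed its direction under the alternatives run. With a residual component 1641 and 1311 passed, but that component is uncorrelated with genotype and labelled sex by construction. It could therefore change no difference or direction, and it is no check of them. Quantile normalization gave 1314 and 1146 genes, or 53.4% lower, against 57.8%. The replicate numbers do not pair the libraries, since same-numbered libraries correlated at -0.0622 to 0.0237, and with the replicate block 1233 lower and 909 higher genes passed. Of 216 named genes that passed, 101 lost the call with the *Ftl2-ps* term. The cause was not tested. The 2671612 reads of Δ/Δ replicate 1 limit what can be seen in genes under about 1 CPM.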
